A study of Mus musculus with 16 samples.

Results

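The levels of 10 type I interferon-stimulated genes were followed in the tumors of 16 mice: Isg15, Ifit1, Ifit2, Ifit3, Mx1, Oasl2, Usp18, Rsad2, Irf7 and Rtp4. They were taken by name, as a named list of 10 of the 21959 genes in the count tables, and all 10 passed the filter on low counts. The tumors were liver metastases that MC38 cells, a mouse colon adenocarcinoma line, had formed after injection into the spleen of 6-week-old male C57BL/6 mice. RNA was sequenced from whole tumor tissue of 4 mice in each of 4 groups. Control mice received PBS. SB525334, an inhibitor of the TGF-β receptor I (ALK5), was given by gavage every day at 20 mg/kg in CMC-Na. KN046, a bispecific antibody against PD-L1 and CTLA-4, was given by intraperitoneal injection at 10 mg/kg 2 times a week. The combination group received both agents at those doses. All mice were wild type and carried the same tumor line, so the groups describe 1 line in 1 strain and 1 sex.

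Type I interferons bind the receptor pair IFNAR1 and IFNAR2, and the kinases JAK1 and TYK2 then phosphorylate STAT proteins. With IRF9 these form the complex ISGF3, which binds interferon-stimulated response elements (ISREs) and switches on the genes described here. In tumors this program is known as a mark of nucleic acid sensing by cancer, myeloid and dendritic cells. Interferon-γ acts through gamma-activated sites (GAS), and many genes respond to both kinds of interferon.

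The members fall into 4 roles. Irf7 (chr7:140842619-140846398, minus strand, GRCm39) encodes the transcription factor that amplifies type I interferon production. Ifit2 (chr19:34527932-34554524), Ifit3 (chr19:34560899-34566443) and Ifit1 (chr19:34618271-34632174) lie side by side on the plus strand and encode tetratricopeptide repeat proteins that bind foreign RNA or curb its translation. Rsad2 (chr12:26492745-26506451, minus strand) encodes viperin, an antiviral radical SAM enzyme, and Oasl2 (chr5:115034997-115050295, plus strand) encodes a 2′-5′ oligoadenylate synthetase-like protein. Mx1 (chr16:97248235-97264107, minus strand) encodes a dynamin-like GTPase that blocks influenza virus. C57BL/6 mice carry an Mx1 allele that makes no functional protein, so its RNA serves here only as a readout. Isg15 (chr4:156283883-156285303, minus strand) encodes a ubiquitin-like protein that is attached to other proteins, and Usp18 (chr6:121222848-121247877, plus strand) encodes the protease that removes it and also restrains the type I receptor. Rtp4 (chr16:23337811-23432972, plus strand) encodes a receptor transporter protein with antiviral activity.

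The ISRE is the sequence through which this gene program is read out, so the stretches that hold it are shown for each member with a match. Promoter windows of 300 bases, from 250 before to 50 after the annotated start, came from RefSeq on GRCm38.p6 (its coordinates therefore differ from those above). They matched 7 of the 10 members, and Mx1, Usp18 and Rtp4 were not matched. The core, GAAA followed by any 2 bases and again GAAA, was searched on both strands, and capitals mark its matches in the stretches below, each written 5′ to 3′ on the strand of the gene.
Ifit1: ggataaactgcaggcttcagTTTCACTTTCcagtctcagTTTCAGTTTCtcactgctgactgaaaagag
Ifit3: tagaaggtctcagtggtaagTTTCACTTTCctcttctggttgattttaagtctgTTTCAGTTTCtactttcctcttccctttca
Isg15: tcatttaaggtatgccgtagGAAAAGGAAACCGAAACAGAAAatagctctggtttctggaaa
Rsad2: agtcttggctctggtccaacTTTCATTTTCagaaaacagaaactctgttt
These stretches are chr19:34640765-34640833 for Ifit1, chr19:34583353-34583436 for Ifit3, chr4:156200855-156200916 for Isg15 and chr12:26456543-26456592 for Rsad2. Ifit1 and Ifit3 had 2 separate matches each, Isg15 had 3 that overlap one another, and Rsad2 had 1. The matches of Isg15 lay closest to the start, from position -78 to -57, and those of Ifit3 farthest, from -156 to -113.

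The core was present in 4 of the 7 members matched and in 3.44% of all 32851 promoter windows. Among other interferon-stimulated genes it was present in 19 of 45, and among interferon-γ response genes in 9 of 14. The GAS core, TTC followed by any 3 bases and GAA, which reads the same on both strands, was present in 8.30% of all windows and, among the members, only in Ifit2. Its stretch, chr19:34550444-34550481 on GRCm38.p6, is shown with the core in capitals.
Ifit2: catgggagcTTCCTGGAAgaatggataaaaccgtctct
Oasl2 and Irf7 had neither core in these windows. A match describes letters and not a bound site, and a window without one says nothing of the factor.

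Between 18368994 and 23877131 reads were counted in each mouse. Levels are given as CPM, read counts brought to a common library size by TMM scaling, and differences as log2 fold changes from edgeR's quasi-likelihood test over 13968 genes, with Benjamini-Hochberg adjustment and a threshold of 0.05. Control mice 1 and 2 resembled each other closely, as did control mice 3 and 4: 24.8% and 18.1% of genes differed past the 95% point of counting error, against 43.6% to 74.9% in the other pairs within groups. They were kept as 4 mice, and where a call against control was lost with each pair merged, this is said beside it. Whether the mice of a pair are independent is not given in the sources used here. If they are not, the control SDs, the counts without overlap and the p-values rest on fewer than 4 independent control samples. The hepatocyte marker Alb stood at 7843 to 8414 CPM in control tumors, 128.8 to 873.9 with SB525334, 5742 to 11060 with KN046 and 7.07 to 11.6 in the combination group, so liver RNA differed widely between the tissues taken. In whole tissue, fewer cells of a type and less RNA per cell cannot be told apart.

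Set side by side per kilobase of exon, Isg15 had the highest level of the members and Ifit1 the lowest. The length was that of all annotated exons of a gene together, from 782 bases for Isg15 to 7421 for Ifit1, and the order depends on it. In CPM, without division by length, control means were highest for Oasl2, at 40.9, and lowest for Usp18, at 6.98. Isg15 was at 14.4 and Ifit1 at 7.28 CPM. The mean level of Isg15 in control tumors was 18.4 ± 5.79 CPM per kilobase (SD, n = 4), and that of Ifit1 was 0.981 ± 0.187. In the mean over the 4 groups, Irf7, Oasl2 and Ifit2 followed Isg15 at 6.38, 5.42 and 3.85 CPM per kilobase. Rtp4, Ifit3, Mx1, Rsad2 and Usp18 lay between 3.04 and 1.54. Neighbours further down this order had group ranges that overlapped, and the order of single genes changed between groups: Ifit2 passed Oasl2 in the KN046 group, at 5.37 ± 1.02 against 4.45 ± 3.30, a difference smaller than the spread of Oasl2.

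**Figure D1:**
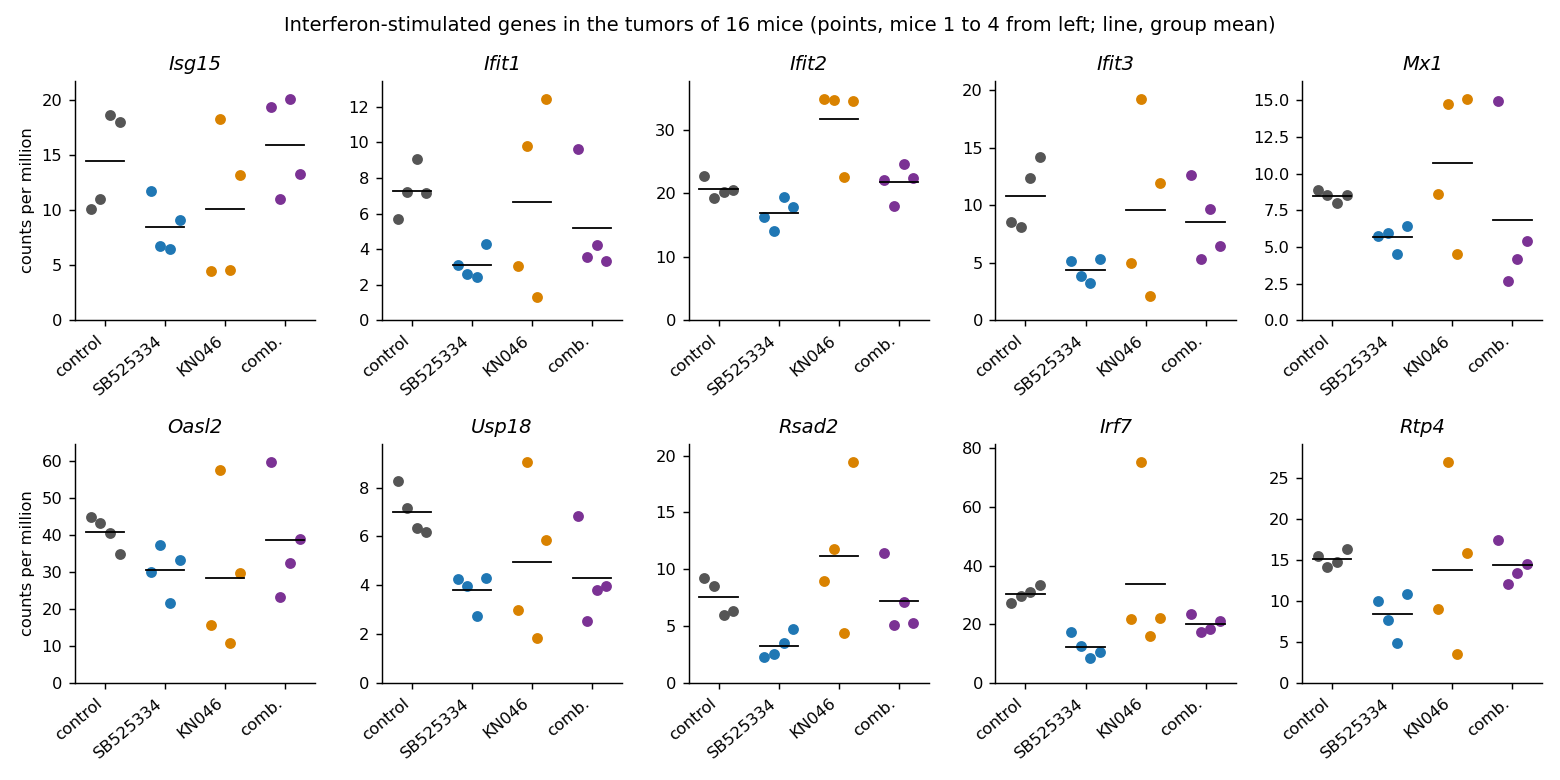
CPM (linear axis from 0, a separate scale for each gene) of the 10 interferon-stimulated genes in each mouse, by group (comb., combination). Points are mice 1 to 4 from left to right and the line is the group mean. Irf7 lay between 8.39 and 17.3 CPM in SB525334 tumors and between 27.25 and 33.5 in controls, while KN046 tumors ranged from 15.9 to 75.3.

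The first comparison asked what TGF-β receptor inhibition alone did to these genes. Irf7 fell with SB525334, by 1.32 on the log2 scale, and it was the only 1 of the 10 that passed the test, beside 9.61% of all genes tested (9.22% lower). The mean level of each of the other 9 was also lower than in control tumors, with log2 fold changes from -1.30 for Ifit3 to -0.29 for Ifit2, none past the threshold. The median of the 10 was -0.86, and that of all genes was 6e-04. In 7 of the 10 every SB525334 tumor lay below every control tumor, which held for 13.3% of all genes tested.

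In control mice 1 to 4, Irf7 stood at 27.25, 29.7, 30.8 and 33.5 CPM. In SB525334 mice 1 to 4 it stood at 17.3, 12.4, 8.39 and 10.6 CPM. All 4 treated tumors lay well below the control range, and the log2 fold change was -1.32 (SE 0.36, adjusted p = 0.0245). The 3′ end of Irf7 overlaps an exon of Phrf1 on the opposite strand, and the strand setting of the counting is not given in the sources used here, so a part of its reads cannot be told apart from Phrf1 reads.

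Rsad2 came next to the threshold. Its level was 9.27, 8.52, 5.985 and 6.32 CPM in control mice 1 to 4. With SB525334 it was 2.305, 2.51, 3.49 and 4.78 CPM. The groups did not overlap, and the log2 fold change was -1.20 (SE 0.38, adjusted p = 0.0546).

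Among the Ifit genes, Ifit3 ranged from 8.14 to 14.2 CPM in controls and from 3.27 to 5.30 CPM with SB525334. Its log2 fold change was -1.30 (SE 0.47, adjusted p = 0.107). For Ifit1 the ranges were 5.69 to 9.08 CPM and 2.41 to 4.265 CPM, with a log2 fold change of -1.23 (SE 0.51, adjusted p = 0.175). Both genes were thus separated between the groups without passing the threshold, whereas Ifit2 overlapped, at 19.3 to 22.7 CPM against 14.05 to 19.4 CPM. Ifit3 has the near-identical copy Ifit3b and Ifit1 has close relatives beside it, so reads may have been shared between them.

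Rtp4 and Usp18, the ISG15 protease, had log2 fold changes of -0.86 (SE 0.40, adjusted p = 0.244) and -0.87 (SE 0.38, adjusted p = 0.214), also without overlap. Mx1 lay between 8.01 and 8.88 CPM in controls and between 4.52 and 6.46 CPM with SB525334, and its adjusted p was 0.522. Isg15 and Oasl2 overlapped between the groups. Isg15 was itself uneven among controls, at 10.1 and 10.98 CPM in mice 1 and 2 and at 18.7 and 17.98 CPM in mice 3 and 4, which follows the pairs of similar control mice.

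At an unadjusted p under 0.05 the test named 6 members, beside 18.9% of all genes. The number called changed with the fit. With only the 8 mice of this comparison in the fit, 7 members passed (Ifit1, Ifit3, Mx1, Usp18, Rsad2, Irf7 and Rtp4), beside 11.9% of all genes. DESeq2 called 3 (Ifit3, Rsad2 and Irf7), beside 9.70% of the genes it tested. Merging the similar control mice left 0, with Irf7 at -1.31 (adjusted p = 0.111), beside 7.21% of all genes. The call of Irf7 was lost without control mouse 4 or without SB525334 mouse 2, 3 or 4, with adjusted p from 0.0580 to 0.0927 and log2 fold changes from -1.32 to -1.17.

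Markers of several other cell types moved with this comparison. The summed level of 15 hepatocyte genes was 405.7 to 1951 CPM in SB525334 tumors and 15620 to 18110 CPM in controls, with 15 of 15 called lower. That of 5 Kupffer cell genes was 9.56 to 24.3 against 162 to 331 CPM (5 of 5 lower), and that of 10 neutrophil genes was 8.91 to 20.4 against 207 to 221 CPM (9 of 10 lower). Of all genes, 9.22% were called lower. With the similar controls merged, the counts of these 3 lists were again 15, 5 and 9, beside 7.21% of all genes called. Genes of plasmacytoid dendritic cells, which make much type I interferon, summed to 1.77 to 4.17 CPM against 5.23 to 7.43 CPM, with 0 of 3 tested called, and their defining marker Siglech was at 0.0861 to 0.279 CPM against 0.157 to 1.75 CPM. In the combination group, hepatocyte genes summed to 14.6 to 22.65 CPM and Kupffer cell genes to 1.47 to 12.4 CPM. All 15 and all 5 were called lower than control there, beside 11.1% of all genes called and 0 of the 10 members. Neutrophil genes summed to 6.06 to 277.2 CPM in that group, with 1 of 10 called lower. The part of these cell types in the levels of the interferon-stimulated genes was not tested.

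Ifit2 rose with KN046 alone and the other 9 genes were not called, beside 1.60% of all genes called higher and 2.40% lower. Ifit2 was 34.8, 34.8, 22.6 and 34.55 CPM in KN046 mice 1 to 4 and between 19.3 and 22.7 CPM in controls. Mice 1, 2 and 4 were far above every control, and mouse 3 stood at the top of the control range. The log2 fold change was 0.62 (SE 0.15, adjusted p = 0.0336). The other 9 members went either way, from -0.52 for Oasl2 to 0.57 for Rsad2, and the median of the 10 was -0.13 against -0.03 for all genes. No member was separated from control in either direction, beside 4.94% of all genes higher and 6.65% lower without overlap.

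The call of Ifit2 was lost when the 8 mice were fitted alone (0.64, adjusted p = 0.101, beside 0.547% of all genes called), when the similar control mice were merged (0.61, adjusted p = 0.239, a fit in which no gene at all was called), and when any 1 control mouse or KN046 mouse 1 or 4 was left out, with adjusted p from 0.0559 to 0.107. It was kept without KN046 mouse 2 or 3.

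The mice of the KN046 group lay far apart in these genes. Ifit3 was 4.96, 19.2, 2.07 and 11.95 CPM in KN046 mice 1 to 4. Rtp4 was 8.95, 26.9, 3.465 and 15.8 CPM in the same order. Irf7 was 21.85, 75.3, 15.9 and 22.3 CPM. In each of these 3 genes mouse 2 was the highest and mouse 3 the lowest, and the range took in the whole range of controls.

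Ifit1 and Rsad2 were instead highest in mouse 4, at 12.4 and 19.4 CPM, and lowest in mouse 3, at 1.285 and 4.415 CPM. Isg15 was 18.3 and 13.15 CPM in mice 2 and 4 and 4.48 and 4.53 CPM in mice 1 and 3. Summed over the 10 members, KN046 mice 1 to 4 had 114.3, 277.4, 71.3 and 180.2 CPM, and control mice lay between 156.9 and 166.6 CPM. Thus KN046 mice 2 and 4 stood above all controls and mice 1 and 3 below all controls.

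The median SD of the members on the log2(CPM + 1) scale was 0.95 in the KN046 group, against 0.25 for all genes tested. In the control group the same medians were 0.16 and 0.18. They were 0.30 and 0.15 with SB525334 and 0.47 and 0.19 in the combination group. The members thus varied about as much as the median of all genes between control mice and more than it in each treated group, most with KN046. That median was not matched to the members' levels. Other lists were also wide in the KN046 group, where the SD of the list mean was 0.86 for the members. It was 1.07 for Kupffer cell genes and 0.82 for erythroid genes, but 0.16 for fibroblast genes and 0.03 for proliferation genes. Among the members, Ifit2 was the exception in the KN046 group, with an SD of 0.30.

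**Figure D2:**
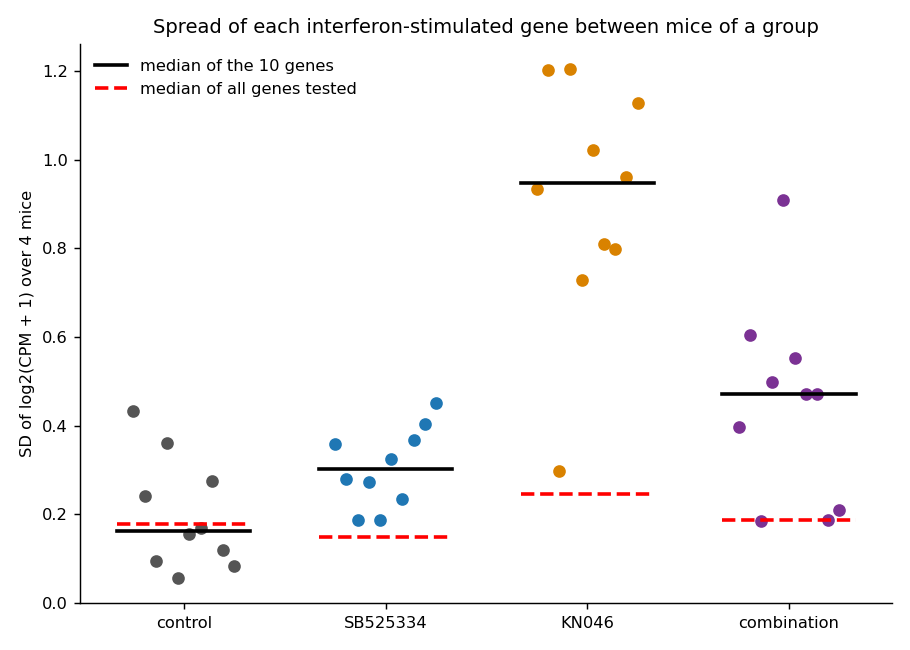
SD of log2(CPM + 1) over the 4 mice of each group for each of the 10 genes (points), with their median (black line) and the median of all genes tested (red dashed line). The median of the 10 was 0.95 in the KN046 group and 0.16 in controls, and the single low point in the KN046 group is Ifit2 at 0.30.

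KN046 mouse 2 weighed on the comparison with control. Without it, Irf7 was at -0.59 in place of 0.16 (SE 0.20, adjusted p = 0.0558), and Oasl2 was called lower, at -1.12 (SE 0.32, adjusted p = 0.0275), beside 14.9% of all genes called in that fit. Neutrophil genes summed to 17.9 to 30.7 CPM in KN046 tumors against 207 to 221 CPM in controls, with 4 of 10 called lower. Macrophage and monocyte genes also differed between these mice, with a summed level of 547.9 to 1112 CPM in KN046 tumors against 961.9 to 1045 CPM in controls. T cell genes summed to 6.20 to 17.6 CPM against 28.7 to 34.9 CPM, with 5 of 6 tested called lower, and NK cell genes to 3.91 to 11.5 CPM against 13.6 to 14.2 CPM, with 2 of 3 tested called lower. These counts are from the fit of all 16 mice, in which 2.40% of all genes were called lower. With the similar controls merged no gene of these lists was called, in a fit that called no gene at all. Their part in the members' levels was not tested.

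The combination was compared with control next, and none of the 10 genes passed the test, by edgeR or by DESeq2, beside 11.1% of all genes called by edgeR and 11.9% by DESeq2. At an unadjusted p under 0.05 the count was also 0, beside 22.1% of all genes. The log2 fold changes ran from -0.70 for Usp18 (SE 0.38, adjusted p = 0.295) to 0.14 for Isg15 (SE 0.38, adjusted p = 0.862), and the median was -0.20. The 95% intervals still allowed changes of more than 1 log2 unit in single genes, such as -1.50 to 0.10 for Usp18 and -1.54 to 0.56 for Ifit1. These intervals are from the fit of all 16 mice, so the spread within the KN046 group enters them as well.

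Irf7 was the only member without overlap, beside 12.1% of all genes lower in that way. It stood at 23.6, 17.5, 18.4 and 21.1 CPM in combination mice 1 to 4, all below the lowest control mouse at 27.25 CPM. The log2 fold change was -0.59 (SE 0.36, adjusted p = 0.357), and with only the 8 mice of the comparison in the fit it was -0.59 with an adjusted p of 0.00718, beside 11.2% of all genes called. With the similar controls merged it was -0.59 with an adjusted p of 0.619.

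Combination mouse 1 was the highest of its group for 8 of the 10 members. Mx1 was 15.0, 2.65, 4.20 and 5.42 CPM in combination mice 1 to 4. Without mouse 1, Mx1 was called lower than control, at -1.03 (SE 0.34, adjusted p = 0.0485), beside 15.5% of all genes. Mouse 1 was also the highest of its group for the summed interferon-γ genes, at 3495 CPM against 1772 to 3097 CPM in the other 3.

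**Figure D3:**
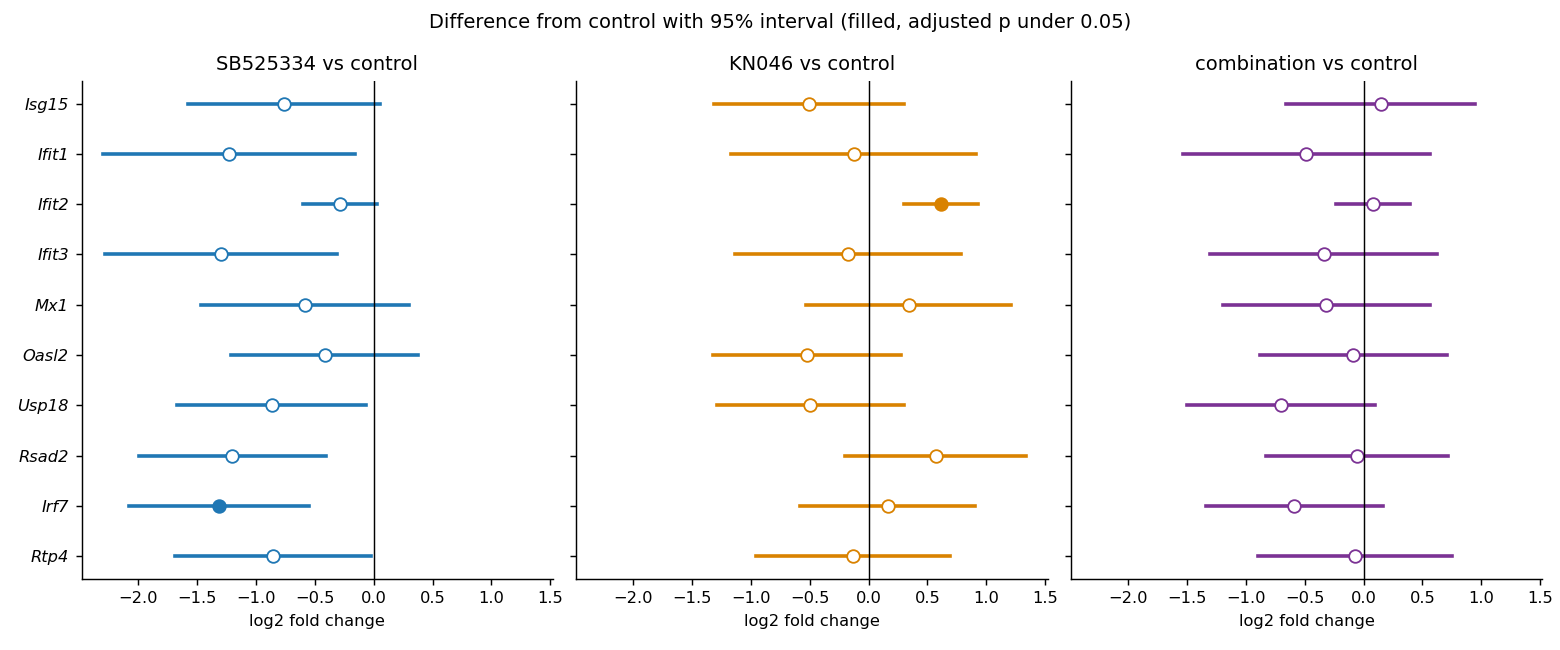
Log2 fold change against control (horizontal axis) of the 10 genes with each treatment, with 95% intervals from the quasi-likelihood fit. Filled points passed an adjusted p of 0.05: Irf7 at -1.32 with SB525334 and Ifit2 at 0.62 with KN046. All 10 points lie left of 0 with SB525334, and none is filled in the combination panel.

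Ifit2 was lower in the combination than with KN046 alone, the 1 member called, beside 24.4% of all genes called (14.5% lower). In combination mice 1 to 4 Ifit2 was 22.1, 17.9, 24.7 and 22.4 CPM, close to the control range, and the KN046 mice lay between 22.6 and 34.8 CPM. Only KN046 mouse 3 fell within the range of the combination mice. The log2 fold change was -0.54 (SE 0.15, adjusted p = 0.0146). It missed the threshold without combination mouse 2 (adjusted p = 0.0628) and with the 8 mice alone (adjusted p = 0.0515). Without KN046 mouse 2, Isg15 and Oasl2 were also called, both higher in the combination, at 1.098 (SE 0.37, adjusted p = 0.0382) and 1.04 (SE 0.31, adjusted p = 0.0233), beside 27.2% of all genes. Without combination mouse 1, Mx1 was called lower, at -1.39 (SE 0.34, adjusted p = 0.00670), beside 30.6% of all genes.

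Adding KN046 to SB525334 gave log2 fold changes above 0 in all 10 members, with a median of 0.74 against 0.01 for all genes, but edgeR called none of them, beside 3.57% of all genes. DESeq2 called 1, Rsad2, at 1.13 (SE 0.37, adjusted p = 0.0490), beside 4.20% of the genes it tested, and at an unadjusted p under 0.05 edgeR named 3, beside 9.19% of all genes. In 4 members, Rsad2, Irf7, Rtp4 and Ifit3, every combination tumor lay above every SB525334 tumor, which held for 2.43% of all genes. Rsad2 was 11.4, 5.13, 7.10 and 5.28 CPM in combination mice 1 to 4. Its lowest value there was just above the highest SB525334 tumor, at 4.78 CPM, and the log2 fold change was 1.14 (SE 0.38, adjusted p = 0.154).

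The 2 single agents were also set against each other. Ifit2, Rsad2 and Irf7 were higher with KN046 than with SB525334, 3 calls of 10 beside 20.0% of all genes called (13.5% higher). Their log2 fold changes were 0.91 for Ifit2 (SE 0.15, adjusted p = 0.000329), 1.77 for Rsad2 (SE 0.38, adjusted p = 0.00343) and 1.48 for Irf7 (SE 0.36, adjusted p = 0.00916). Only Ifit2 did not overlap, beside 13.1% of all genes. All 3 kept their calls when any 1 mouse was left out. Irf7 fell to 0.72 (SE 0.20, adjusted p = 0.0154) without KN046 mouse 2, however, and its call was lost with the 8 mice alone (1.48, SE 0.45, adjusted p = 0.0547). Without KN046 mouse 3 the number called was 6, beside 15.1% of all genes. Oasl2 was the only member below 0, at -0.11 (SE 0.38, adjusted p = 0.865).

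Whether SB525334 acted differently with and without KN046 was asked by the interaction, the effect of SB525334 on top of KN046 minus its effect alone. Neither edgeR nor DESeq2 called a member, beside 4.28% of all genes by edgeR and 6.29% by DESeq2. The median over the 10 was 0.76, with 8 above 0, and at an unadjusted p under 0.05 only Isg15 was named, at 1.42 (SE 0.55, adjusted p = 0.184), beside 16.6% of all genes. Without KN046 mouse 2 the number called was 3: Isg15 at 1.86, Oasl2 at 1.45 and Irf7 at 1.31, with adjusted p of 0.0342, 0.0491 and 0.00838, beside 6.71% of all genes. These comparisons share mice, each treatment being set against the same 4 controls, so they are not independent of each other.

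Over single values, exact two-sided permutation tests of CPM between pairs of groups were run for the 10 members in 6 comparisons. The smallest p that 4 mice against 4 can give is 0.0286, reached in 13 of the 60 tests, and the smallest adjusted p was 0.132.

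The upstream parts of the pathway were read from lists of its genes. RNA of the ligands was hardly detected: of 20 type I and type III interferon genes, 14 had no count in any mouse, and all 20 together had 26 counts in the 16 mice. Ifnb1, the gene of interferon-β, held 14 of these. The summed ligand level was at most 0.260 CPM, and a count of 0 allows up to 0.126 to 0.163 CPM, depending on the mouse. At this depth a difference in ligand RNA was not detectable, and none of the ligands passed the filter.

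The receptor genes were well expressed. Ifnar1 had mean levels from 101.7 to 115.3 CPM over the 4 groups and Ifnar2 from 30.5 to 32.9 CPM, and neither was called in any comparison with control. With KN046 alone, the interferon-γ receptor chain Ifngr2 fell by 0.44 on the log2 scale (SE 0.11, adjusted p = 0.0424) and Il10rb, a chain of the type III interferon receptor, fell by 0.62 (SE 0.12, adjusted p = 0.0166). Both calls were lost with the similar controls merged.

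Of 16 genes of JAK-STAT and IRF signalling, 0 were called with SB525334 against control (3 at an unadjusted p under 0.05). Of all genes, 9.61% were called and 18.9% had an unadjusted p under 0.05. With KN046, 5 were lower, beside 2.40% of all genes. Among these 5, Irf1 and Ptpn6, the phosphatase SHP-1, were at -1.28 (SE 0.32, adjusted p = 0.0400) and -1.20 (SE 0.25, adjusted p = 0.0238). In the combination 7 genes of the list were higher than with KN046 alone, Irf1 among them. Of all genes, 24.4% were called in that comparison, 14.5% lower and only the rest of the 24.4% higher. The 5 calls with KN046 fell to 0 without KN046 mouse 1 or 3, or with the similar controls merged, to between 2 and 3 without any 1 control mouse, and rose to 9 without KN046 mouse 2. Of all genes, 0.149% were called without KN046 mouse 1, 0.426% without mouse 3 and 14.9% without mouse 2. The share was 0.461% to 1.12% without any 1 control mouse, and no gene was called with the similar controls merged. The interaction called 4 of the 16, beside 4.28% of all genes, with Irf1 at 1.90 (SE 0.45, adjusted p = 0.0221). It called 2 with the similar controls merged (Irf1 adjusted p = 0.0798) and 7 without KN046 mouse 2, beside 2.09% and 6.71% of all genes. Stat2, a part of ISGF3, had means of 61.3, 36.3, 44.6 and 44.2 CPM in the control, SB525334, KN046 and combination groups and was not called in any comparison.

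The sensing genes Cgas, Rigi and Ifih1 were not called against control with any treatment. Of 18 sensing genes tested, 1 was lower with SB525334, beside 9.22% of all genes. This was Ifi204, a DNA-binding member of the Ifi200 family, at -0.78 (SE 0.21, adjusted p = 0.0238). Its adjusted p was 0.113 with the similar controls merged. With KN046, 3 were lower, beside 2.40% of all genes: Zbp1, at -1.39 (SE 0.38, adjusted p = 0.0498), Mavs, at -0.61 (SE 0.15, adjusted p = 0.0334), and Sting1, the adaptor of cGAS, at -0.61 (SE 0.15, adjusted p = 0.0330). These 3 calls were lost with the similar controls merged. The combination called 0 of 18 against control (2 at an unadjusted p under 0.05), beside 11.1% and 22.1% of all genes.

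A further 54 interferon-stimulated genes were tested outside the member list, among them Ifi204, Zbp1 and Adar, which the sensing list above also counted. With SB525334, 7 were lower than control and 0 higher, beside 9.22% of all genes called lower. The 7 were led by Oasl1 at -1.42 (SE 0.34, adjusted p = 0.00906), a close relative of Oasl2, then Apol9b at -1.12 (SE 0.27, adjusted p = 0.0102) and Herc6 at -1.09 (SE 0.33, adjusted p = 0.0417). The median of the 54 was -0.53, with 50 of 54 below 0. In 25 every SB525334 tumor lay below every control tumor, beside 13.3% of all genes. With the 8 mice of the comparison alone 21 were called lower, beside 11.9% of all genes called. With the similar controls merged 0 were, beside 7.21%. The number was 3 to 4 without control mouse 1, 2 or 4 or SB525334 mouse 2, 3 or 4, beside 8.16% to 9.28% of all genes called. With KN046, 4 were lower (Zbp1, Ifi47, Ube2l6 and Bst2), beside 2.40% of all genes called lower. That number was 14 by DESeq2, 25 without KN046 mouse 2, 0 without KN046 mouse 1 or 3, and 0 or 1 without any 1 control mouse. With the similar controls merged it was 0, in a fit that called no gene at all. The share of all genes called moved in the same way, to 8.67% by DESeq2, 14.9% without KN046 mouse 2, 0.149% without mouse 1 and 0.426% without mouse 3. The combination called 0 against control (3 at an unadjusted p under 0.05), beside 11.1% and 22.1% of all genes.

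Set against KN046 alone, the combination had 15 of these 54 genes higher, led by Zbp1, Gbp3 and Ifi47, and 1 lower, Oasl1, at -1.01 (SE 0.34, adjusted p = 0.0378). In that comparison 24.4% of all genes were called, 14.5% lower and only the rest of the 24.4% higher. The number higher was 8 without KN046 mouse 1 or combination mouse 4 and 25 without KN046 mouse 2. In either direction, these fits called 16.4%, 17.1% and 27.2% of all genes. The interaction called 11 of the 54, each above 0, beside 4.28% of all genes. Among the 11 were Gbp3 at 2.48 (SE 0.53, adjusted p = 0.0113), Zbp1 at 2.45 (SE 0.53, adjusted p = 0.0122) and Ifi47 at 1.97 (SE 0.45, adjusted p = 0.0168). Gbp3, Zbp1 and Ifi47 also respond to interferon-γ. The interaction called 24 of the 54 without KN046 mouse 2 and 5 with the similar controls merged, beside 6.71% and 2.09% of all genes. Zbp1 and Ifi47 were not among those 5, with adjusted p of 0.0512 and 0.0643.

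Interferon-γ response genes were set beside the members, without a test of the difference between the lists. With KN046 all 20 tested were below 0 and 11 were called lower, with a median of -1.76, against 1 call and a median of -0.13 among the 10 members. Of all genes, 2.40% were called lower with KN046. Tgtp1, an interferon-induced GTPase, was at -2.82 (SE 0.57, adjusted p = 0.0230) and Cxcl9, the chemokine that draws T cells, at -2.35 (SE 0.45, adjusted p = 0.0170). With SB525334, 4 were lower, beside 9.22% of all genes, among them Cxcl10 at -1.13 (SE 0.29, adjusted p = 0.0132). In the combination, 16 were higher than with KN046 alone, beside 24.4% of all genes called, 14.5% lower and only the rest higher. Against control the combination called 0 of them (0 at an unadjusted p under 0.05), beside 11.1% and 22.1% of all genes. The 11 calls with KN046 fell to 0 with the similar controls merged or without KN046 mouse 1 or 3, and to 5 or 6 without any 1 control mouse. Of all genes, 0.149% were called without KN046 mouse 1, 0.426% without mouse 3 and 0.461% to 1.12% without any 1 control mouse. The 4 calls with SB525334 were 0 with the similar controls merged and 12 with the 8 mice alone, beside 7.21% and 11.9% of all genes. They were 0 to 2 without control mouse 1, 2 or 3 or SB525334 mouse 1, 2 or 3, beside 8.16% to 9.20%. The interaction called 17 of the 20, beside 4.28% of all genes, each above 0 and led by Tgtp1 at 4.43 (SE 0.78, adjusted p = 0.00258). It called 10 with the similar controls merged and 11 without combination mouse 4, beside 2.09% and 2.68% of all genes. Ifng itself had 45 counts over the 16 mice and was not tested.

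The mean over the 10 members and the mean over the interferon-γ list, both on the log2(CPM + 1) scale, had a Pearson correlation of 0.55 over the 16 mice, and 0.79 once group means were taken out. Both lists come from the same libraries and share scaling and tissue makeup, so these are descriptions. KN046 mice 2 and 4 had member means of 4.51 and 4.11, the highest and the third highest of the 16 mice, beside interferon-γ means of 4.53 and 4.58, below all controls. Combination mouse 1 was high in both, at 4.14 and 6.04.

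**Figure D4:**
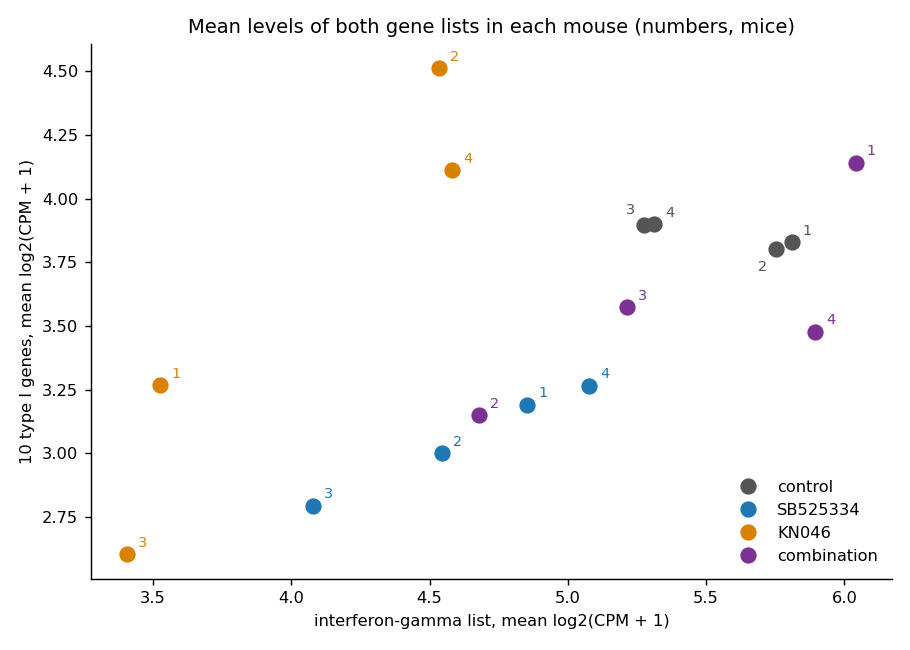
Mean log2(CPM + 1) of the 10 type I genes (vertical axis) against that of the interferon-γ list (horizontal axis), 1 point per mouse, coloured by group and numbered by mouse. KN046 mice 2 and 4 stand at 4.51 and 4.11 on the vertical axis but under 4.6 on the horizontal axis, where controls lie between 5.27 and 5.81.

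Across the 16 mice the members moved largely together. The Pearson correlation of each member with the mean of the other 9 was highest for Ifit3, at 0.96, then Ifit1 and Rtp4, at 0.93 and 0.91. It was lowest for Ifit2, at 0.44, and the remaining 6 lay between 0.71 and 0.88. With group means removed, Oasl2 and Usp18 joined the top, at 0.92 and 0.96, and Ifit2 was at 0.56. The genes outside the list most like the mean of the members, out of 12828 with a mean of at least 1 CPM, were Ifi44 (0.91), Cmpk2 (0.91), Ifi204 (0.90), Phf11d (0.90) and Ifi206 (0.89). Points of these correlations share group, library and tissue makeup.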

How the data were processed

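RNA of tumor tissue from 16 mice, 4 in each group, was analysed. Per the labels and the methods of the study, the authors made counts per gene with HTSeq 2.0.4 from HISAT2 2.2.1 alignments to GRCm39, after trimming by cutadapt 2.7 (versions and build from the submitters' processing notes). They deposited these raw counts, which were used here, and normalized values, which were not. Settings for strand and for reads with several alignments are not given in the sources used here, so overlapping genes and close copies are uncertain.

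Counts were tested in R 4.3.3 with edgeR 4.0.16: filterByExpr with a minimum count of 10, TMM scaling, and 1 quasi-likelihood model of all 16 mice with a term for each group. The model has 1 dispersion for each gene over the 4 groups, so the spread within every group enters the SE of each comparison. Adjusted p-values (Benjamini-Hochberg) are over 13968 genes. The common dispersion gave a biological coefficient of variation of 20.1%. The counting error of 18368994 to 23877131 counts per mouse limits the lowest genes, and intervals and floors (3 counts) cover counting error only, except the 95% intervals of fold changes, which come from the fit. Nothing in the labels says more of the replicates than that they are separate mice, and whether the similar control mice are independent is not given.

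Members were named by symbol. The members and the lists (other interferon-stimulated genes, ligands, receptors, signalling, sensing, interferon-γ response and cell type markers) were chosen with earlier results of these data known. From a list and comparison, at most the 3 called genes with the largest change in each direction were named, and in the ligand, receptor and signalling lists any gene could be named with its level. Bst2, Cgas, Rigi and Ifih1 were named after their values were seen. The values of 1 gene counted in a list are not reported here. Alternatives were DESeq2 1.42.0, other scalings and filters, the 8 mice of a comparison alone, the replicate number as a block, merged control mice, the thresholds of the study and each mouse left out in turn. Gene positions and exon lengths are from GENCODE M39, which held 21770 of the 21959 identifiers. The test was tried on simulated data.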

Additional observations from a re-analysis of the deposited data

Results flagged for a closer look

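Of 40 sets of 4 mice (10 genes in 4 groups), 3 held a mouse far from the other 3 by Dixon's test, where chance gives about 1 in 20 sets. Irf7 was 75.31 CPM in KN046 mouse 2, with the other 3 mice between 15.87 and 22.29 CPM. Ifit2 was 22.63 CPM in KN046 mouse 3, with the other 3 between 34.55 and 34.8 CPM. Ifit1 was 9.654 CPM in combination mouse 1, with the other 3 between 3.347 and 4.203 CPM.

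The effect of SB525334 was called different with and without KN046, by the interaction in edgeR, in 8 genes named here from the lists around the members. It was so called in none of the 10 members. The differences in log2 fold change were 2.4812 for Gbp3, 2.4513 for Zbp1 and 1.9703 for Ifi47 among other interferon-stimulated genes. They were 1.9001 for Irf1 and 1.336 for Irf8 in signalling, and 4.4312 for Tgtp1, 3.6455 for Tgtp2 and 3.498 for Gbp2 among interferon-γ response genes. With the similar controls merged, the calls of Zbp1, Ifi47 and Irf1 were lost, with adjusted p of 0.0512, 0.0643 and 0.0798. Tgtp1 and Tgtp2 are close copies, so reads may have been shared between them.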

How the results depend on the processing

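Of 70 log2 fold changes (10 genes in 7 comparisons), 57 kept their direction and their side of the threshold under every alternative other than leaving out a mouse, and 37 kept both whichever mouse was left out. The number of members called with SB525334 against control was 1, and it was 3 with DESeq2, 2 with no filter on low counts (7.76% of all genes), 7 with the 8 mice of the comparison alone, 0 with control mice 1 and 2, and 3 and 4, each merged (7.21% of all genes), and 4 by the thresholds of the study (unadjusted p under 0.05 and fold over 2; 9.90% of all genes). With the 8 mice alone, the count was 0 for KN046 against control, 1 for the combination against control and 0 for the combination against KN046. It was 0 with merged controls for KN046 against control. The thresholds of the study gave 0 for KN046 against control, 0 for the combination against KN046, 1 for the combination against SB525334 and 1 for the interaction, and DESeq2 gave 1 for the combination against SB525334. Why these counts changed between fits was not tested. Leaving out each mouse in turn gave 0 to 1 members with SB525334 against control, 0 to 2 with KN046 against control, 0 to 1 for the combination against control, 0 to 3 for the combination against KN046, 3 to 6 for KN046 against SB525334 and 0 to 3 for the interaction. In 18 of the 70, none of them past the threshold, the sign turned in at least 1 of these fits. Against control with KN046, the ranges were -0.6152 to 0.2177 for Ifit1, -0.7607 to 0.1647 for Ifit3, -0.5912 to 0.3986 for Irf7 and -0.6752 to 0.1919 for Rtp4. Against control with the combination they were -0.3518 to 0.1035 for Oasl2, -0.3435 to 0.0821 for Rsad2 and -0.1556 to 0.0107 for Rtp4. For the combination against KN046 they were -0.841 to 0.1378 for Ifit1, -0.4927 to 0.4195 for Ifit3, -0.5136 to 0.2551 for Usp18, -0.9759 to 0.0028 for Irf7 and -0.2554 to 0.6007 for Rtp4. For the combination against SB525334 they were -0.4826 to 0.5334 for Mx1 and -0.165 to 0.3509 for Usp18. For KN046 against SB525334 they were -0.196 to 0.4979 for Isg15, -0.7109 to 0.1613 for Oasl2 and -0.0961 to 0.639 for Usp18, and for the interaction -0.8418 to 0.1922 for Mx1. Over all genes, the median change moved by at most 0.043 on the log2 scale under any alternative, the fits without 1 mouse included.

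Whether replicate numbers pair the mice is not decided by these values. Over 24 pairs with the same number in different groups, the correlation of deviations from group means ran from -0.483 to 0.527, with 11 over 0.1. The median of these correlations was 0.084, against -0.032 over 72 pairs with other numbers. Of 16 mice, 6 were closest to their own number. With the replicate number as a block, Irf7 with KN046 against control was -0.0151 (adjusted p = 0.984) in place of 0.16, and no count of members called changed.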
